A study of Bos taurus with 6 samples.

Results

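The genes described here are those of the fatty acid binding proteins FABP3, FABP4, FABP5, FABP7 and PMP2, together with CD36, a membrane receptor for long-chain fatty acids. They were taken by gene symbol, and the 6 symbols matched 6 of the 23475 rows of the expression table. The cells were bovine preadipocytes, the precursors of fat cells, prepared from subcutaneous fat of calves and grown in high-glucose DMEM with fetal bovine serum. One group received the bta-miR-484 agomir, a modified RNA that raises the activity of that microRNA, and the other received agomir NC, the negative control. RNA was collected 48 h after transfection from 3 samples of each group. No induction of differentiation is described for these samples. Tissue of several calves was used, but it is not stated if each sample stands for a separate animal or culture, so the p-values measure the spread between these samples, which may be technical. Expression is given as FPKM, a fragment number scaled by transcript length and by library size, and without read numbers the depth behind each value is unknown. The FPKM of a library summed to between 365977 and 379361.

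Fatty acid binding proteins are small cytosolic proteins that hold a long-chain fatty acid in a closed barrel and carry it between membranes, enzymes and the nucleus. CD36 sits in the plasma membrane and takes part in the uptake of fatty acids from outside the cell. In fat, FABP4 is the classical marker of the differentiated adipocyte, FABP5 is found in both precursors and mature cells, and FABP3 is best known from heart and skeletal muscle.

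FABP5 was the dominant member in these cells. Over the 6 libraries its FPKM lay between 51.9 and 72.3, with a mean of 60.6, which placed it at rank 914 of the 23475 rows. FABP3 followed with FPKM of 20.1 to 26.2 and rank 2552. CD36 came next with FPKM of 4.45 to 6.5 and rank 7773, and FABP4 was lower, with FPKM of 1.54 to 3.57 and rank 9917. The ranges of neighbours among these 4 genes did not overlap, so their order was the same in each library. Mean FPKM of FABP5 was 2.55 times that of FABP3. The FABP5 to FABP4 ratio of FPKM was between 18.4 and 38.9 in single libraries. FABP7, a brain form of the family, did not exceed 0.203 FPKM and was listed at 0 in 1 library of each group. PMP2, a myelin protein of the same family, was listed at 0 in all 6 libraries, so these last members could not be told apart in level.

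As a share of the summed FPKM of the 5 binding protein genes, FABP5 made up 66.2% to 72% in single libraries. FABP3 made up 25.3% to 31.3% and FABP4 1.85% to 3.8%. The FABP5 share was 69.5 ± 2.98% in the agomir group and 69.9 ± 1.79% in the agomir NC group (SD, n = 3 each), a difference smaller than the spread between libraries. In the same order, the FABP3 share was 28 ± 2.91% against 27 ± 2.1% and the FABP4 share 2.42 ± 0.62% against 3.04 ± 0.678%, and the groups overlapped for both. The summed FPKM itself was 78.4, 75.6 and 83.2 with the agomir, against 94.1, 89.2 and 101 with agomir NC. Each agomir library had a smaller sum than each agomir NC library. Since FABP5 made up most of the sum, this largely repeats the FABP5 values and does not describe the family as a whole.

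**Figure D1:**
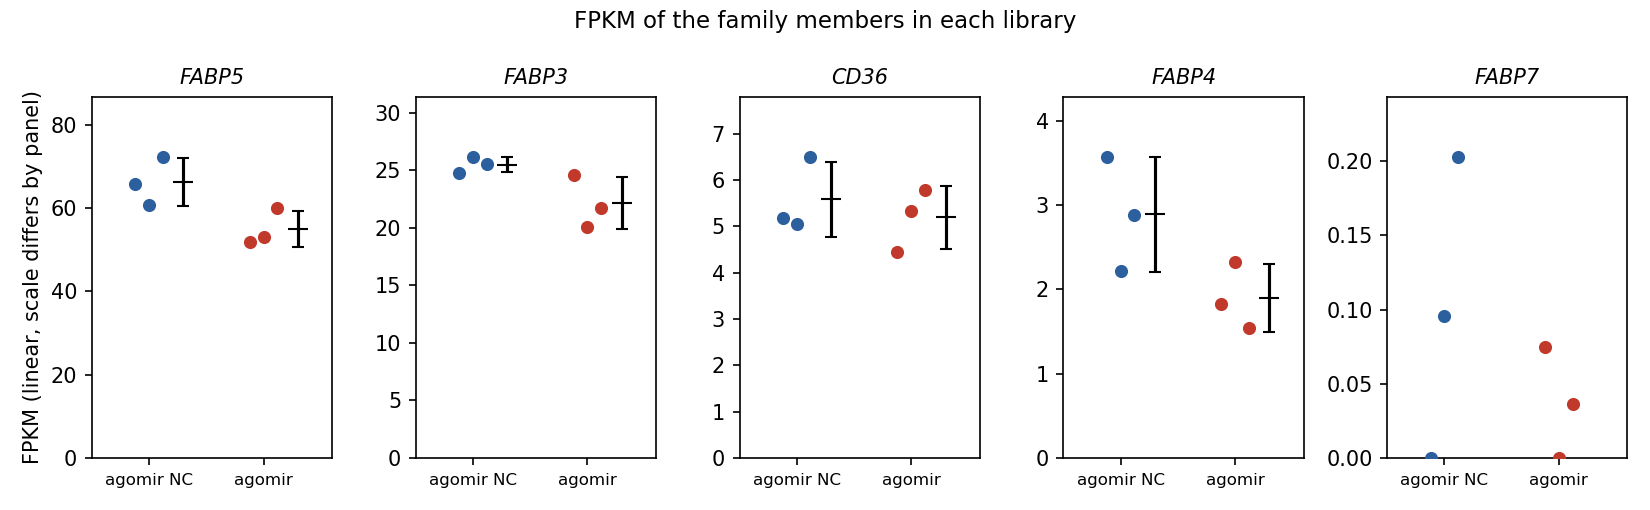
FPKM of FABP5, FABP3, CD36, FABP4 and FABP7 in each library, on linear axes that differ by panel. Points are the 3 libraries of agomir NC (blue) and agomir (red), and the bars beside them show the mean and SD, which are left out for FABP7; FABP5 and FABP3 have groups that do not overlap, and PMP2, listed at 0, is not drawn.

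With the agomir, FABP5, FABP3, FABP4 and CD36 had lower mean FPKM than with agomir NC, by 17%, 13.2%, 34.3% and 6.99%. The groups did not overlap for FABP5 and FABP3, overlapped for FABP4 and overlapped widely for CD36. In bulk RNA of this kind, fewer cells of a type and less RNA per cell cannot be told apart.

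Of the 6 members, 4 were tested, and 0 passed an adjusted p of 0.05 from limma, a threshold that 1 of 12422 genes passed in either direction (0.00805%). At an unadjusted p of 0.05, 3 members were lower and 0 higher with the agomir, where 4.31% of all genes tested were lower and 6.63% higher. Groups did not overlap for 2 members, both lower, against 6.36% of genes lower and 10.9% higher. The median log2 fold change of the 4 members was -0.24, and that of all genes tested 0.01. Without agomir replicate 3, the count of members past the unadjusted p was 1. Of the 12422 genes tested, 535 were lower and 824 higher at that p, and after median-ratio scaling 688 and 673 of 12419. After TPM scaling 470 of 14024 were lower and 1048 higher, but the filter and pseudocount of 0.5 were then applied to TPM, so the set of genes changed as well as the scaling. The 4 members kept a negative log2 fold change under both scalings tried. The median-ratio factors of the libraries lay between 0.990 and 1.018, so rescaling was too slight to test the sign strongly.

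FABP5, the epidermal form of the carrier, had FPKM of 51.9, 53.2 and 59.9 with the agomir, while the agomir NC libraries had 65.8, 60.8 and 72.3. The highest agomir library stayed just under the lowest agomir NC library. Mean FPKM was 55 ± 4.28 against 66.3 ± 5.8 (SD, n = 3 each), 17% lower. The log2 fold change, here and below on the log2(FPKM + 0.5) scale, which understates changes of low genes, was -0.27 (standard error 0.07, 95% confidence interval -0.43 to -0.10), with an unadjusted p of 0.00489 and an adjusted p of 0.305 from limma. By exact permutation of the library labels (two-sided) p was 0.1, the lowest value this design can reach. FABP5 stayed past the unadjusted p of 0.05 under each alternative tried.

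FABP3, the heart form, had FPKM of 24.6, 20.1 and 21.7 with the agomir, against 24.8, 26.2 and 25.5 with agomir NC. Agomir replicate 1 lay close to the lowest agomir NC library, and the other 2 agomir libraries were clearly below. Its log2 fold change was -0.20 (standard error 0.07, 95% confidence interval -0.37 to -0.04), with an unadjusted p of 0.0185 and an adjusted p of 0.37 from limma. The unadjusted p was 0.0755 without agomir replicate 2, 0.0502 without agomir replicate 3 and 0.0536 without agomir NC replicate 2.

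For FABP4, the adipocyte form, the agomir NC libraries held 3.57, 2.21 and 2.88 FPKM and the agomir libraries 1.82, 2.33 and 1.54 FPKM. Agomir replicate 2 exceeded agomir NC replicate 2, and the groups were otherwise apart. It had the most negative log2 fold change of the 4 members tested, -0.49, and also the widest 95% confidence interval, -0.87 to -0.11. The unadjusted p from limma was 0.016, the adjusted p 0.363, and exact permutation (two-sided) gave 0.2. Without agomir replicate 3 the unadjusted p was 0.0593, and without agomir NC replicate 1 it was 0.0705.

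CD36 had FPKM of 4.45, 5.33 and 5.79 with the agomir, against 5.18, 5.05 and 6.5 with agomir NC. The lowest value was in an agomir library and the highest in an agomir NC library, and between them the other 2 agomir libraries lay above the other 2 agomir NC libraries. The log2 fold change was -0.09 (standard error 0.12, 95% confidence interval -0.36 to 0.17), with an unadjusted p of 0.443 and an adjusted p of 0.814 from limma. Its sign turned when agomir replicate 1 or agomir NC replicate 3 was left out, to 0.0022 and 0.0111. FABP7 had listed FPKM of 0.0747, 0 and 0.0364 with the agomir, against 0, 0.0954 and 0.203 with agomir NC. It overlapped between groups and, like PMP2, was below the mean of 0.5 FPKM required for a test.

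**Figure D2:**
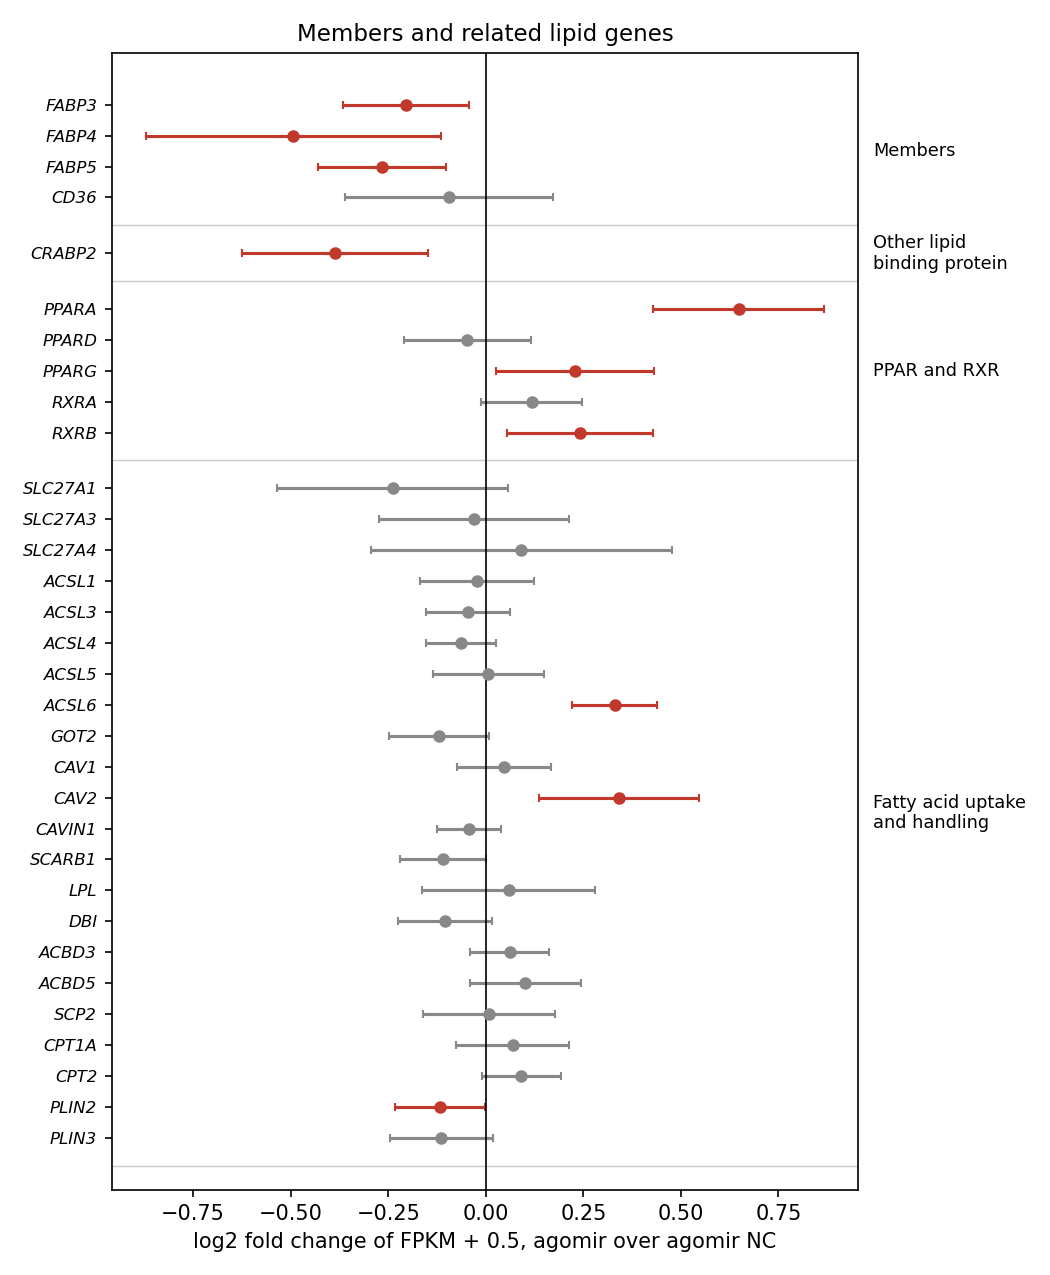
Log2 fold change of FPKM + 0.5, agomir over agomir NC, for the members and related lipid genes that were tested. Points are limma estimates from 3 libraries a group, bars are 95% confidence intervals, and red marks an unadjusted p under 0.05; 3 of 4 members lie below 0 with intervals that exclude it, and PPARA lies farthest above 0.

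Other intracellular lipid binding proteins share the barrel fold of the family. CRABP2, the retinoic acid carrier and the most abundant gene of this list, had FPKM of 20.4, 15.9 and 18.1 with the agomir, against 25.2, 20.4 and 26.1 with agomir NC. Its groups were apart by only 0.0124 FPKM, between agomir replicate 1 and agomir NC replicate 2, and the log2 fold change was -0.39 (limma, unadjusted p = 0.00504, adjusted p = 0.306). CRABP2 stayed past the unadjusted p under each alternative. FABP1, FABP6, FABP9, FABP12, RBP2, RBP5 and RBP7 were listed at 0 in all 6 libraries.

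Genes of fatty acid uptake and handling did not share one direction. Of 22 tested, 11 had a negative log2 fold change, and the median was -0.01. At the unadjusted p 2 were higher and 1 lower, counts near the 6.63% and 4.31% of all genes tested. ACSL6, which activates fatty acids to acyl-CoA, had FPKM of 27.5, 27.5 and 26.9 with the agomir, against 21.4, 21.1 and 22.4 with agomir NC. These groups were far apart relative to their spread, with a log2 fold change of 0.33 (limma, unadjusted p = 6.33e-05, adjusted p = 0.112). CAV2, a caveolar coat protein, had 19.3, 22.8 and 18.5 FPKM against 16.6, 14.1 and 16.7 FPKM and a log2 fold change of 0.34 (limma, unadjusted p = 0.00413, adjusted p = 0.296). PLIN2, which coats lipid droplets, was lower, with 162, 170.2 and 167 FPKM against 173, 174 and 195 FPKM and a log2 fold change of -0.12 (limma, unadjusted p = 0.046, adjusted p = 0.447). CAV1, the main caveolar protein and the most abundant gene of the list at a mean of 239.8 FPKM, had overlapping groups. ACSL6 and CAV2 stayed past the unadjusted p under each alternative. PLIN2 did not when agomir replicate 1, 2 or 3 or agomir NC replicate 3 was left out, with no filter or without a variance trend, and the count of lower genes was 0 without agomir replicate 1 or 3, 3 without agomir NC replicate 1 and 4 after median-ratio scaling.

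The PPAR receptors are transcription factors that bind fatty acids, pair with RXR and act on FABP and CD36 genes in fat. Of 5 tested genes of this group, 3 were higher and 0 lower at the unadjusted p, against 6.63% and 4.31% of all genes tested. Their median log2 fold change was 0.23. Groups did not overlap for 4 of them, all higher, as for 10.9% of all genes tested. PPARA, with FPKM of 5.96, 5.14 and 6.23 under the agomir against 3.47, 3.8 and 3.23 under agomir NC, had groups that were well apart and a log2 fold change of 0.65 (limma, unadjusted p = 7.47e-05, adjusted p = 0.114). PPARG, the main regulator of fat cell differentiation, was at 3.99, 3.69 and 3.91 FPKM against 3.39, 3.34 and 2.96 FPKM. The groups did not overlap, the log2 fold change was 0.23, and limma gave an unadjusted p of 0.031 and an adjusted p of 0.407. RXRB had a log2 fold change of 0.24 (limma, unadjusted p = 0.0169, adjusted p = 0.364), and RXRA was the most abundant of the group at a mean of 14 FPKM. PPARA stayed past the unadjusted p under each alternative, whereas RXRB did not without agomir replicate 3 or agomir NC replicate 1. PPARG did not in the settings named below, so that only PPARA passed without agomir replicate 3. With no filter, RXRA was also past it on the higher side.

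Of the 10 CD36 relatives and partners, all tested, 0 were higher and 1 lower at the unadjusted p, against 6.63% and 4.31% of all genes tested. Their median log2 fold change was 0.04. FYN, a kinase that associates with CD36, had FPKM of 36.8, 40.1 and 39 with the agomir, against 42, 44.4 and 42 with agomir NC, a log2 fold change of -0.15 (limma, unadjusted p = 0.0158, adjusted p = 0.362). THBS1, a secreted ligand of CD36, was the most abundant at a mean of 352 FPKM, and its groups overlapped. FYN was no longer past the unadjusted p without agomir replicate 1 or agomir NC replicate 2, and THBS1 was past it, on the higher side, after TPM scaling or without agomir NC replicate 1. SCARB1, a receptor of the CD36 family, joined FYN on the lower side, for a count of 2, without agomir NC replicate 3, with no filter, after median-ratio scaling and with a correction for gene span that was chosen after seeing the data.

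The labels call the cells adipocytes, and of 15 adipocyte genes 6 had a mean below 0.5 FPKM and 9 a mean above it. Among the former, ADIPOQ did not exceed 0.197 FPKM, CIDEC 0.23 FPKM, DGAT2 0.195 FPKM, PLIN4 0.0612 FPKM and LEP 0.0368 FPKM, and PCK1 was listed at 0 in all 6 libraries. Among the latter, the fatty acid synthase gene FASN had a mean of 34.8 FPKM, LPL 3.73, PPARG 3.55 and GPD1 2.95. CIDEA had a mean of 1.27 FPKM, PLIN1 1.23, LIPE 0.634 and CEBPA 0.535. SCD, a fatty acid desaturase, was the most abundant gene of the adipocyte list at a mean of 92.8 FPKM. It had FPKM of 88.2, 86.4 and 90.4 with the agomir, against 89.9, 104 and 97.6 with agomir NC, so the groups overlapped, with a log2 fold change of -0.14 (limma, unadjusted p = 0.0358, adjusted p = 0.422; exact permutation p = 0.2). Of 9 tested adipocyte genes, 1 was higher, PPARG, and 1 lower, SCD, at the unadjusted p, against 6.63% and 4.31% of all genes tested. The median log2 fold change was 0.06. The call of PPARG was lost without agomir replicate 1, agomir replicate 3 or agomir NC replicate 3, and with the gene span correction. That of SCD was lost without agomir replicate 1, agomir replicate 2, agomir NC replicate 2 or agomir NC replicate 3, after TPM scaling and without a variance trend.

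Preadipocyte and fibroblast genes were abundant, led by the collagen gene COL3A1 at a mean of 7623 FPKM, while DLK1 was listed at 0. Of 11 tested, 0 were higher and 1 lower at the unadjusted p, against 6.63% and 4.31% of all genes tested. The lower one was the proteoglycan gene DCN, with 2840.4, 2899 and 2850.4 FPKM against 2991, 3102 and 3248 FPKM. Its log2 fold change was -0.12 (limma, unadjusted p = 0.0196, adjusted p = 0.376). DCN was no longer past the unadjusted p without agomir replicate 1 or 3, with no filter or without a variance trend, and the count of lower genes was 2, with THY1, without agomir NC replicate 1.

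FABP4 and CD36 are also made by endothelial cells and macrophages, FABP3 by muscle, and FABP7 and PMP2 by glia, so markers of those cells were read beside them. The summed FPKM of the 9 endothelial genes was 4.83, 3.93 and 4.53 with the agomir and 4.72, 4.72 and 4.15 with agomir NC. VWF gave most of it at a mean of 3.39 FPKM, PECAM1 and CDH5 stayed at or under 0.182 FPKM, and CLDN5 and EMCN were listed at 0. The 9 macrophage genes summed to between 7.26 and 8.6 FPKM, led by CD14 at 6.27 FPKM, with CSF1R and PTPRC at or under 0.211 FPKM and TYROBP listed at 0. The 7 muscle genes summed to at most 0.623 FPKM, led by DES, with MYOD1, MYOG and CKM listed at 0; PAX7 was not analysed here. The 8 glial genes summed to between 3.14 and 5.01 FPKM, nearly all of it S100B, with SOX10, GFAP and CDH19 listed at 0. At limma's unadjusted p, 0 of the 5 tested genes of these 4 lists passed in either direction, where 6.63% of all genes tested were higher and 4.31% lower.

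The genes most like each member over the 6 libraries were taken as the 3 with the highest Pearson correlation of log2(FPKM + 0.5) among 10642 other genes with a symbol and a mean of at least 1 FPKM, as a description only. For FABP5 these were H2AFV (r = 0.99), GPR84 (r = 0.98) and RMDN2 (r = 0.98). For FABP3 they were SHISA4 (r = 0.98), TRPM6 (r = 0.97) and IDUA (r = 0.97), and for FABP4 C23H6orf226 (r = 0.99), AKT1 (r = 0.98) and TRIT1 (r = 0.97). For CD36 they were AKR1B1 (r = 0.99), NCF4 (r = 0.98) and PRPF38A (r = 0.97).

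In the RefSeq table of the assembly ARS-UCD2.0, which is not the build of the expression values, FABP5, PMP2, FABP9, FABP4 and FABP12 are neighbours in that order among protein-coding genes of 1 chromosome, and FABP3, FABP7 and CD36 lie on others. Of these 5 neighbours, FABP5 and FABP4 had values above 0 and the other 3 were listed at 0. An RNA gene without a protein overlaps FABP5 in that table, and since no strand setting is stated, reads of both could not be told apart. A symbol or synonym matched for 11471 of the 12422 genes tested. FABP3, FABP4 and FABP5 are short genes with spans of up to 10 kb, and the 2950 tested genes of such spans had a median log2 fold change of -0.02, with 6.47% lower and 6.1% higher at the unadjusted p. With a trend of the log2 values with gene span removed from each library, an alternative chosen after seeing the data, the log2 fold change of FABP5 was -0.25, that of FABP3 -0.19 and that of FABP4 -0.48.

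A PCR primer pair for FABP4 is listed in a supplementary table of the study and is shown because FABP4 is a member; its place in the transcript was not determined here.
FABP4 forward: aagtcaagagcatcgtaa
FABP4 reverse: ccagcaccatcttatcat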

How the data were processed

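RNA sequencing libraries of 3 agomir and 3 agomir NC samples were grouped by the treatment in the labels. Expression was used as the FPKM that the authors deposited, and the submitters' processing notes name fastp, HISAT2, StringTie and the build ARS-UCD1.2; for tool versions, annotation and strand, the sources used here give nothing. The 12422 genes whose FPKM averaged 0.5 or more across libraries were fitted as log2(FPKM + 0.5) with limma 3.58.1 in R 4.3.3 (variance trend, two-sided, Benjamini-Hochberg adjustment over all genes tested), which was tested on simulated data. Single genes also had an exact two-sided permutation test of the 20 labelings, whose smallest p is 0.1. Levels and shares were described without a test. The members and lists were chosen with earlier results of these data known. Of each list, the genes past an unadjusted p of 0.05 and the most abundant one were named, with the 3 genes most correlated with each member; further list genes are named for their level, and 1 list gene is not reported here, nor are counts over its list. Alternatives were other pseudocounts (0.1 or 1), a filter at an average of 1 FPKM or none, TPM and median-ratio scaling, no variance trend, array weights, a replicate block, leaving out each library and, chosen after seeing the data, a gene span correction.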

Additional observations from a re-analysis of the deposited data

How the results depend on the processing

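Under 16 alternatives each, the log2 fold changes of FABP5, FABP3 and FABP4 stayed negative. None of the 4 tested members passed an adjusted p of 0.05 from limma. The filters, the variance trend and the replicate block cannot change a log2 fold change here, so they tested only the p-values. For FABP5 and FABP3, whose groups did not overlap, leaving out a library could not turn the sign. With 1 library left out the log2 fold changes ranged from -0.33 to -0.20 for FABP5 and from -0.28 to -0.14 for FABP3. They ranged from -0.64 to -0.35 for FABP4 and from -0.17 to 0.01 for CD36. CD36 turned positive without agomir replicate 1 (0.0022) or agomir NC replicate 3 (0.0111). FABP5 was past an unadjusted p of 0.05 in all 16 alternatives, FABP4 in 14 and FABP3 in 13. The number of members lower at that p ranged from 1 to 3 with 1 library left out. The order of FABP5, FABP3, CD36 and FABP4 by level could not change with medians or with a library left out, since their ranges did not overlap. The FABP5 share ranged from 69.2% to 70.4% with 1 library left out.

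The count of fatty acid handling genes lower at the unadjusted p was 1, ranged from 0 to 3 with 1 library left out, and was 4 after median-ratio scaling, 0 without a variance trend, 2 with array weights and 4 with the gene span correction, which was chosen after seeing the data. The adipocyte genes, 1 higher and 1 lower, each ranged from 0 to 1 with 1 library left out; 0 were higher with the gene span correction, and 0 were lower with TPM scaling or without a variance trend. The cause was not tested.

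Libraries with the same replicate number did not deviate together, with correlations of -0.0506, 0.0532 and 0.0387. In this balanced design the replicate block cannot change a log2 fold change. The values therefore stayed at -0.27 for FABP5, -0.20 for FABP3, -0.49 for FABP4 and -0.09 for CD36. The unadjusted p from limma with the block was 0.00064 for FABP5, 0.0244 for FABP3, 0.0187 for FABP4 and 0.332 for CD36. With it, 0 members were past an adjusted p of 0.05 and 3 were lower at an unadjusted p of 0.05. S100A4 joined DCN among the lower preadipocyte and fibroblast genes. FPKM carries no read numbers, so the counting error of low genes such as FABP4 and FABP7 is unknown.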
